A study of Mus musculus with 6 samples.

Results

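The genes described here make cholesterol and fatty acids: the enzymes of sterol synthesis, their regulators, and the enzymes that build and desaturate fatty acids. They were taken by name from a list of 32 genes. Of these, 30 had a probe set that carries their symbol alone in the platform annotation, out of 12393 such genes, and the expression of Acat2 and Insig1 is not analysed here. Of several probe sets for a gene, the brightest on average across the 6 arrays represents it. A filter on dim genes (a mean log2 level of at least 5.74) was passed by 29 members, among 9395 genes tested. Acaca, the acetyl-CoA carboxylase of the cytosol, was the member that did not pass, with levels of 5.92 and 5.86 in BL6, 6.11 and 5.89 in Beige, against 5.16 and 5.39 in Satin.

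Cells make cholesterol from acetyl-CoA through mevalonate, squalene and lanosterol, and the transcription factor SREBP-2, the product of Srebf2, switches these enzymes on as a group when membrane sterol is low. Insig proteins hold the SREBP precursors in the endoplasmic reticulum while sterol is plentiful. SREBP-1c, from Srebf1, acts mainly on fatty acid synthesis, in which Acly supplies acetyl-CoA, Me1 supplies NADPH, Fasn builds palmitate, and Scd1 introduces the double bond that makes oleate.

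The study compared RNA from the stomach antrum of Satin mice with that of 2 strains titled as controls, C57/BL6 (called BL6 here) and Beige, with 2 arrays for each of the 3 strains. Satin mice carry a mutation in Foxq1, a forkhead transcription factor, and Beige mice carry one in Lyst, a regulator of lysosome traffic; both are inherited changes present in every tissue, and the labels name no treatment. The labels state no age, sex or genetic background, so an effect of the Foxq1 mutation and of other strain differences cannot be told apart. The design text speaks of 2 mice per strain but does not tie 1 array to 1 animal, so p-values measure the spread between arrays, which may be partly technical.

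Levels are log2(signal + 32) after quantile normalization; the added constant shrinks differences of dim genes. Called genes are those whose limma p, adjusted by the Benjamini-Hochberg method over the 9395 genes, was under 0.05. Median deposited signals ran from 38.2 to 74.15 and were highest on the Satin arrays, and without normalization the median gene lay 0.43 higher in Satin, so normalized differences are read against the typical gene. Of 9 antral mucosa markers, Gkn1, Gkn2, Tff1 and Tff2 lay between 12.82 and 13.29 on all arrays. Against the mean of both control strains, Muc5ac (-4.35), Krt20 (-1.64) and Gast (-1.4) were called lower in Satin. Epcam was at 0.7 and Pdx1 at -0.02, neither called. Equal mucosa content of the arrays is therefore not shown. The 5'/3' ratio for Gapdh, which drops when RNA is degraded, stood at 0.526 for BL6 replicate 1, 0.988 to 1.02 on the other control arrays, and 1.18 and 1.16 on the Satin arrays. Markers of pancreas summed to 1273 to 2675 units of normalized linear signal on the replicate 1 arrays and to 8029 to 48578 on the replicate 2 arrays. Liver transcripts stood out on Satin replicate 2, where Alb was at 10.61 against 5.20 to 6.5 elsewhere. Results below are therefore also given without BL6 replicate 1 and Satin replicate 2, a setting chosen after seeing the data. That fit keeps 1 Satin and 1 BL6 array, so its spread comes from the Beige pair alone and the lone arrays are assumed to vary like it.

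Whether strains overlap is stated for normalized levels unless said otherwise. On the signals as deposited, both Satin arrays lay above all 4 control arrays for 44.2% of the 9395 genes and below them for 2.04%.

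Sequence before the start sites is shown for Hmgcs1, Cyp51, Msmo1 and Sc5d, the 4 sterol enzymes with the largest differences in Satin, and for Me1, a called member of the fatty acid group. The 250 bases before each start are from RefSeq, build GRCm38.p6, written 5' to 3' on the strand of the gene. Capitals mark CCAAT on either strand (ATTGG on the other strand), the box bound by NF-Y; TCACNCCAC, a core of the sterol element that SREBPs bind; and CACGTG, an E-box.
Hmgcs1, chr13:119690101-119690350, plus strand: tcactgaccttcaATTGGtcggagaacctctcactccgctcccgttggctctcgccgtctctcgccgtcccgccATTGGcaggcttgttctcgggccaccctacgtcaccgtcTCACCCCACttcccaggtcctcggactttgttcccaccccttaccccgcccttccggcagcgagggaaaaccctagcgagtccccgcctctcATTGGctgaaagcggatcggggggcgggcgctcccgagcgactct
Cyp51, chr5:4104698-4104947, minus strand: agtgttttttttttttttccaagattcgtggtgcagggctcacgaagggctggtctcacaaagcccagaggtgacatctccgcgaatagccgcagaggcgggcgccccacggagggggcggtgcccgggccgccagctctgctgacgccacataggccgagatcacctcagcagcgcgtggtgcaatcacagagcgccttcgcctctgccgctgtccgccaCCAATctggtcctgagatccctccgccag
Msmo1, chr8:64733579-64733828, minus strand: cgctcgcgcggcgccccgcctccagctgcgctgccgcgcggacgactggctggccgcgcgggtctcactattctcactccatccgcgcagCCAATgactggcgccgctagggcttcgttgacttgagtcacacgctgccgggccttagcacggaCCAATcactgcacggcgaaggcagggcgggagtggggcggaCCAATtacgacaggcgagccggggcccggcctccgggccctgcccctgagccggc
Sc5d, chr9:42264301-42264550, minus strand: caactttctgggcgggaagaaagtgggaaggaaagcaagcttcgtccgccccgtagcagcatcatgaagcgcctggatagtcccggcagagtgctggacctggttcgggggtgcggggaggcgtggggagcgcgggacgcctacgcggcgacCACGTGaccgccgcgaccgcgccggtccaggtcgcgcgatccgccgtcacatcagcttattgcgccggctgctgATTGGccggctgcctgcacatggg
Me1, chr9:86695915-86696164, minus strand: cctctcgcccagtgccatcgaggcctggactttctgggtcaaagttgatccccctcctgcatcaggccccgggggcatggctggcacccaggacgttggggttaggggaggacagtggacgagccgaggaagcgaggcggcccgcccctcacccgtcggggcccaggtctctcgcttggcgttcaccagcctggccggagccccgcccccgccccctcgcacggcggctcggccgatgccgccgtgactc
Hmgcs1 holds 3 CCAAT boxes and a TCACNCCAC match (TCACCCCAC, at -137 to -129 from the start). That match is the only one among the 24 members with a promoter entry. Msmo1 holds 3 CCAAT boxes, Cyp51 holds 1, Sc5d holds 1 and a CACGTG at -98 to -93, and Me1 holds none of these motifs. These matches are strings of letters and not measured sites of binding.

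Over windows of 300 bases (250 before the start and 50 after it), 24 of the 32 members had an entry in the RefSeq table, Acat2 and Insig1 included, whose expression was not analysed. Scd1, Scd2, Fads1, Fdps, Fdft1, Sqle, Stard4 and Acat1 had none and were not searched. CCAAT occurred on either strand in 13 of 15 sterol enzymes (86.7%), in 3 of 3 regulators and in 2 of 6 fatty acid synthesis genes (33.3%), against 38.1% of 7599 genes tested on the arrays and 37.9% of all 27025 genes. GGGCGG, a box bound by Sp1, occurred in 14 of 15 sterol enzymes (93.3%) and 3 of 6 fatty acid synthesis genes (50%), against 63.1% of tested genes and 35.9% of all genes. TCACNCCAC was found in 1 of 15 sterol enzymes (6.67%), against 1.12% of tested genes and 1.22% of all genes. Its shorter form CACNCCAC, which lies inside it, was found in 2 of 15 (13.3%; Hmgcs1 and Acat2), against 6.07% and 6.12%. CACGTG was found in 2 of 15 (13.3%), against 10% and 7.24%.

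Against the mean of both control strains, 3 of the 29 tested members were called, all higher in Satin: Scd1, Me1 and Acat1. Over all genes 1.44% were called (41 higher and 94 lower). Of the 17 sterol enzymes 0 were called in limma and 5 passed an unadjusted p under 0.05. Their differences lay below 0 for 16 of 17, with a median of -0.33, but on the arrays as deposited, where the median gene lay at 0.43, 6 of 17 lay below 0 and the median was 0.19. Over all genes, 50.2% lay below 0 and the median was 0. At an unadjusted p under 0.05, 9 of 29 members passed in limma, beside 12.6% of all genes. The fatty acid synthesis genes had a median of 0.13, or 0.11 without Scd1. All 3 calls were lost in limma without the filter on dim genes (adjusted p of 0.0542 to 0.0744), without the intensity trend (0.133 to 0.207) and with the Gapdh ratio as a covariate (0.0532 to 0.176); with median centring only that of Scd1 remained. The differences themselves were the same without the filter or the trend, and with the Gapdh ratio they were 1.47 for Scd1, 0.86 for Me1 and 0.61 for Acat1.

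**Figure D1:**
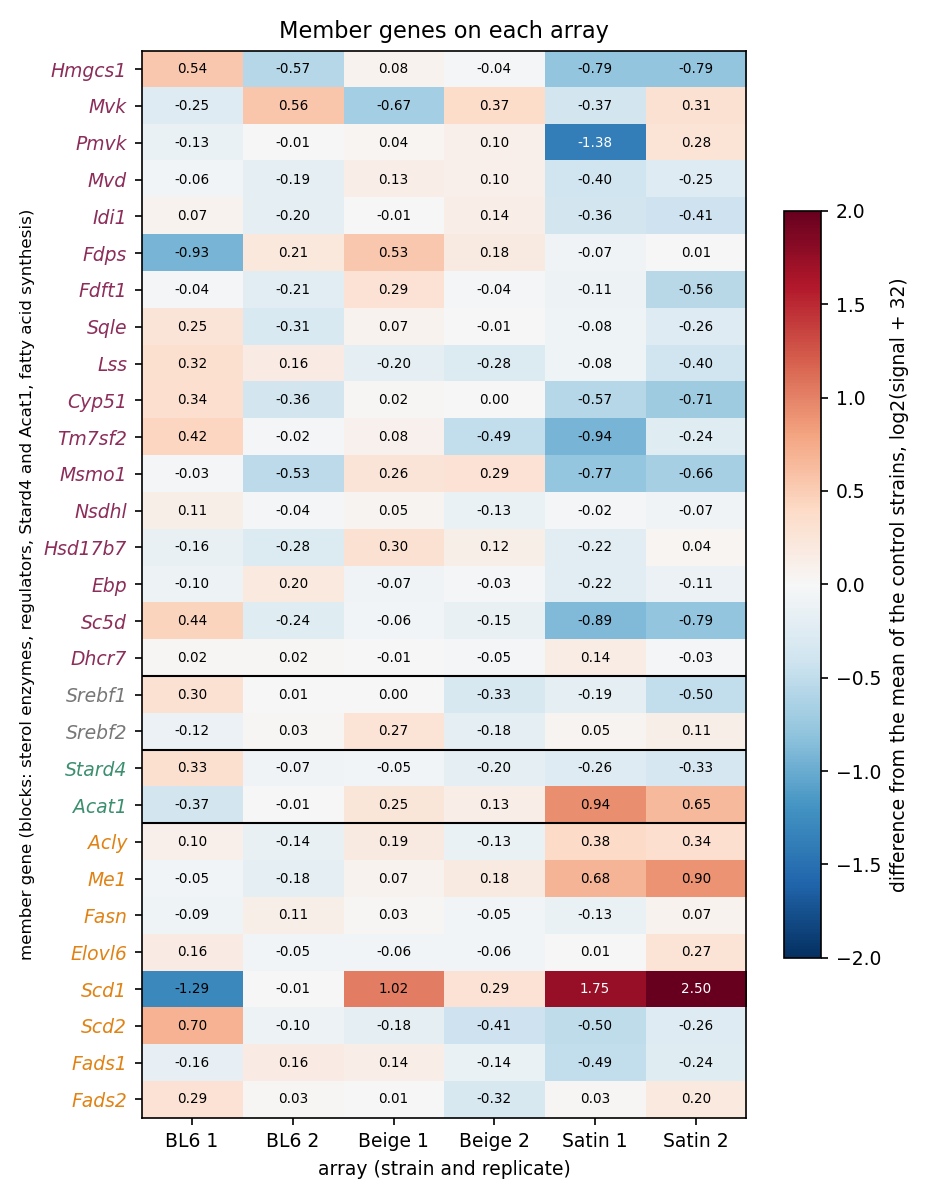
Level of each tested member on each of the 6 arrays, as the difference from the gene's mean over the control strains in log2(signal + 32). Genes are in pathway order, and colours reach their limit at 2. Acaca, which did not pass the filter, is not drawn. The sterol enzymes Hmgcs1, Cyp51, Msmo1 and Sc5d are lowest on the Satin arrays after quantile normalization. In deposited signals, BL6 replicate 2 lies below both Satin arrays for each of these genes. Scd1 is lowest on BL6 replicate 1 and highest on Satin replicate 2.

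The first part of the sterol pathway runs from acetoacetyl-CoA to lanosterol. Hmgcs1, which makes HMG-CoA, had levels of 12.02 and 10.91 in BL6, 11.56 and 11.45 in Beige, against 10.70 and 10.69 in Satin. Both Satin arrays lay below all 4 control arrays after normalization, though their deposited signals (2034.9 and 1965.1) were above that of BL6 replicate 2 (1639.4), while the BL6 arrays differed from each other by more than BL6 replicate 2 did from Satin. The difference was -0.79 (SE 0.26, limma adjusted p = 0.216, 95% interval -1.37 to -0.22), so Hmgcs1 was not called. Its other 3 probe sets gave -0.33, -0.31 and -0.41.

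Idi1, the isopentenyl diphosphate isomerase, had levels of 9.38 and 9.11 in BL6, 9.30 and 9.45 in Beige, against 8.95 and 8.90 in Satin. The groups did not overlap, at a difference of -0.39 (SE 0.15, limma adjusted p = 0.291), but a second, dimmer probe set of Idi1 gave 0.21. Mvd, the mevalonate diphosphate decarboxylase, also lay lowest in Satin, at 6.51 and 6.65 against 6.72 to 7.04 in the controls. Pmvk, phosphomevalonate kinase, was at 5.32 on Satin replicate 1 and 6.98 on Satin replicate 2, the lowest and the highest of its 6 values. Mvk, mevalonate kinase, ranged from 5.37 to 6.60 with the strains overlapping. Fdps, the farnesyl diphosphate synthase, was at 8.33 on BL6 replicate 1 and at 9.19 to 9.79 on the others. Fdft1, the squalene synthase, Sqle, the squalene epoxidase, and Lss, the lanosterol synthase, had differences of -0.33, -0.17 and -0.24, with the strains overlapping for each. All 9 measured genes up to lanosterol lay below 0 after quantile normalization (median -0.33), which the deposited scale does not keep for the sterol group as a whole.

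The second part turns lanosterol into cholesterol. Msmo1, a C4-methylsterol oxidase, had levels of 9.80 and 9.30 in BL6, 10.09 and 10.12 in Beige, against 9.06 and 9.17 in Satin. Satin was lowest and Beige highest, without overlap between any of the strains. The difference was -0.71 (SE 0.17, limma adjusted p = 0.0786) against both controls and -1.0 (SE 0.19, adjusted p = 0.0532) against Beige, the comparison in which its adjusted p was smallest. Sc5d, the lathosterol desaturase, had levels of 9.05 and 8.37 in BL6, 8.55 and 8.46 in Beige, against 7.72 and 7.82 in Satin. The gap to the nearest control array was wider than the distance between the Satin arrays, and the difference was -0.83 (SE 0.20, limma adjusted p = 0.0893); a dimmer probe set gave -0.20. Cyp51, the lanosterol demethylase, had levels of 8.98 and 8.28 in BL6, 8.66 and 8.64 in Beige, against 8.07 and 7.93 in Satin, again without overlap. Its difference was -0.64 (SE 0.20, limma adjusted p = 0.201), and its dimmer probe sets gave -0.20 and, below the filter, -0.24.

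Ebp, the sterol isomerase, also did not overlap, with 8.84 and 8.95 in Satin against 8.96 to 9.26, but this gap was small. Tm7sf2, a sterol C14 reductase, lay at 6.57 and 7.27 in Satin and 7.02 to 7.93 in the controls (difference -0.59, limma adjusted p = 0.406). Nsdhl, Hsd17b7 and Dhcr7, which remove C4 groups, reduce the ketone and reduce the last double bond, had differences of -0.04, -0.08 and 0.06. A dimmer probe set of Hsd17b7 gave 0.08. Among the 8 enzymes after lanosterol the median was -0.38.

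In all, both Satin arrays lay below all 4 control arrays for 7 of the 17 sterol enzymes (41.2%; Hmgcs1, Mvd, Idi1, Cyp51, Msmo1, Ebp and Sc5d), against 12.7% of all genes tested; on the signals as deposited this held for 0 of 17, against 2.04% of all genes. Both lay above for 0 of 17, against 10.9% of all genes, and on the signals as deposited for 3 of 17 (17.6%; Dhcr7, Ebp and Nsdhl), against 44.2%. The normalized linear signal summed over the 17 enzymes was 9109 and 6329 in BL6, 8393 and 7858 in Beige, against 5324 and 5416 in Satin. As deposited, the sums were 7130 and 5154 in BL6, 7303 and 8718 in Beige, against 7109 and 6665 in Satin, with the strains overlapping. Compared within replicate numbers, the median of the sterol enzymes was -0.29 for the replicate 1 arrays and -0.20 for the replicate 2 arrays, and 10 of 17 lay below 0 in both. Without BL6 replicate 2, only BL6 replicate 1, the array with a Gapdh ratio of 0.526, stands for BL6. The differences were then -1.04 for Hmgcs1, -0.84 for Msmo1 and -1.0 for Sc5d. Leaving out BL6 replicate 1 instead gave -0.51, -0.59 and -0.67 for these genes. Leaving out BL6 replicate 1 and Satin replicate 2 together gave Hmgcs1 -0.51, Msmo1 -0.65 and Sc5d -0.72. With the Gapdh ratio as a covariate, Hmgcs1 was at -0.24, Msmo1 at -0.46 and Sc5d at -0.49.

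Smooth muscle markers were lowest in Satin on the normalized scale as well. Their summed signal was 10829 to 15582 on the control arrays and 7293 and 8063 on the Satin arrays (as deposited, 9400 to 16910 against 9136 and 9884), 8 of 8 lay below 0 and 4 of 8 were called lower, including Des at -1.53. Of the antral mucosa markers, 3 of 9 were called lower, among them Muc5ac, the surface mucin, at -4.35, while 4 of 9 lay above 0, the median was -0.01, and the epithelial marker Epcam was at 0.70 (limma adjusted p = 0.0873). In whole tissue, fewer cells of a type and less RNA per cell cannot be told apart, and the part of these shifts in the sterol values was not tested.

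Neither regulator was called. Srebf2 had levels of 7.84 and 7.99 in BL6, 8.23 and 7.78 in Beige, against 8.01 and 8.07 in Satin, all overlapping. The difference was 0.08 (SE 0.18, limma adjusted p = 0.909, 95% interval -0.33 to 0.48), and it was -0.03 without Beige replicate 2. A dimmer probe set of Srebf2 gave -0.08. Srebf1 had levels of 8.46 and 8.17 in BL6, 8.16 and 7.83 in Beige, against 7.97 and 7.66 in Satin. Both BL6 arrays lay above the others by a narrow margin, and Satin and Beige overlapped; the difference was -0.34 (SE 0.19, limma adjusted p = 0.512) and turned to 0.19 on the arrays as deposited. Transcript levels say nothing of how much SREBP protein was cleaved.

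Stard4, which carries sterol between membranes and is induced with the sterol enzymes, had levels of 8.62 and 8.22 in BL6, 8.24 and 8.09 in Beige, against 8.03 and 7.96 in Satin. Satin lay below every control array by a narrow margin, at -0.30 (limma adjusted p = 0.533). Acat1, the mitochondrial thiolase of ketone body and isoleucine breakdown, went the other way. Its levels were 9.20 and 9.55 in BL6, 9.81 and 9.70 in Beige, against 10.50 and 10.21 in Satin, so that BL6 was lowest and Satin highest without overlap. Acat1 rose by 0.79 against both controls (SE 0.16, limma adjusted p = 0.0472, 1.73-fold), and its other probe sets gave 0.76 and 0.59. With the replicate number as a block the limma adjusted p was 0.0699, and it lay between 0.0516 and 0.495 when BL6 replicate 1, either Beige array or either Satin array was left out. Without BL6 replicate 1 and Satin replicate 2 together, with the spread from the Beige pair alone, the difference was 0.85 (limma adjusted p = 0.00797).

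**Figure D2:**
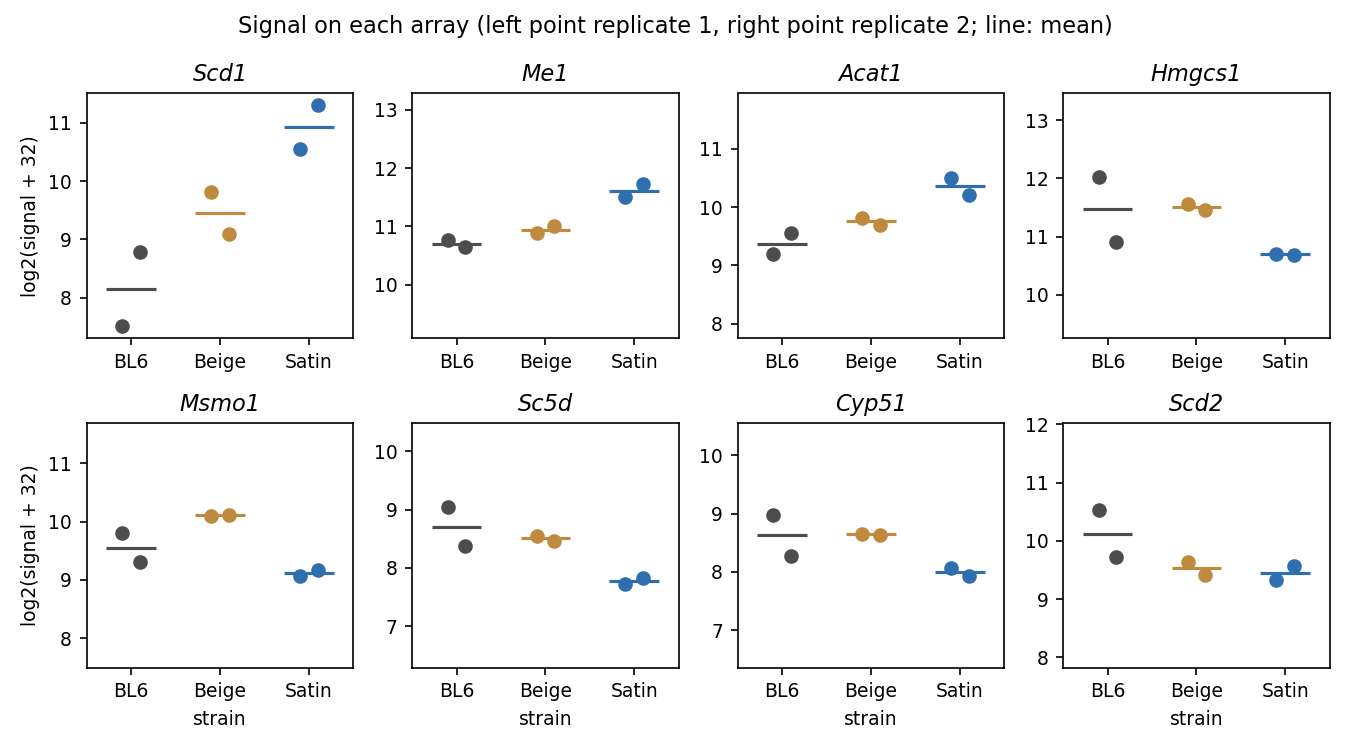
Levels in log2(signal + 32) of members described in full, with 1 point per array and a bar at the mean of each strain's 2 arrays. Scd1, Me1 and Acat1 are highest in Satin, and the Scd2 levels of Satin overlap those of Beige. Hmgcs1, Msmo1, Sc5d and Cyp51 are lowest in Satin after quantile normalization. In deposited signals, BL6 replicate 2 lies below both Satin arrays for each of these sterol enzymes. The differences from the controls as deposited are -0.36 for Hmgcs1, -0.19 for Msmo1 and -0.3 for Sc5d.

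Scd1 showed the largest difference of all members. Its deposited signals were 122.7 and 330.0 in BL6, 738.0 and 574.5 in Beige, against 1841.2 and 3010.5 in Satin, which gave levels of 7.51 and 8.79, 9.82 and 9.09, and 10.55 and 11.30. The strains formed 3 steps without overlap, BL6 lowest and Satin highest, and the BL6 arrays lay furthest apart (mean 8.15 ± 0.90 in BL6, 9.45 ± 0.52 in Beige and 10.93 ± 0.53 in Satin, SD, n = 2). Scd1 rose by 2.12 against both controls (SE 0.36, limma adjusted p = 0.0227, 95% interval 1.32 to 2.93, 4.36-fold), and a dimmer second probe set gave 1.24. The difference was 1.88 within the replicate 1 arrays and 2.36 within the replicate 2 arrays. The limma call was lost without Satin replicate 2 (1.75, adjusted p = 0.102), Beige replicate 1 (2.30, 0.11) or Beige replicate 2 (1.93, 0.138), and the difference was 1.47 with the Gapdh ratio as a covariate. Without BL6 replicate 1 and Satin replicate 2 together it was 1.44 (limma adjusted p = 0.00161, on the spread of the Beige pair alone).

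Scd1 is also abundant in fat and liver. The summed signal of 14 adipocyte markers was 1874 and 3677 in BL6, 3591 and 3265 in Beige, against 2690 and 3018 in Satin. Their mean log2 level was 6.85 and 7.21 in Satin, beside 7.21 and 7.19 in Beige, and Fabp4, the fatty acid binding protein of fat cells, was at 9.42 and 10.03 in Satin, beside 9.91 and 9.79 in Beige. The adipocyte marker Adipoq was at 5.05 on BL6 replicate 1, where Scd1 was lowest too, and at 7.12 to 8.70 elsewhere. Of 11 tested adipocyte markers 0 were called in limma, and their median was 0.05, with 6 above 0 and 5 below. Only 1 passed an unadjusted p under 0.05 in limma, beside 12.6% of all genes. It was Pparg, at -0.6 (limma adjusted p = 0.151), with both Satin arrays below all control arrays. The summed signal of 5 hepatocyte markers was 3186 on Satin replicate 2, where Scd1 was highest, 1059 on Satin replicate 1 and 1334 to 1869 on the control arrays, a sum led by Ttr (9.99 to 10.85) on every array but Satin replicate 2. Alb was at 6.5 on Satin replicate 1, above the control arrays (5.20 to 6.32). The part of fat and liver RNA in the Scd1 values was not tested.

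Me1, the cytosolic malic enzyme, had levels of 10.77 and 10.64 in BL6, 10.89 and 11.00 in Beige, against 11.50 and 11.72 in Satin. On this probe set the order of strains was that of Scd1, with a tight spread within each. Me1 rose by 0.78 (SE 0.14, limma adjusted p = 0.0264, 1.72-fold), and its other probe set gave 0.91. On that other probe set Beige lay at -0.1 against BL6, so BL6 was not lowest there. The Me1 call was lost without Beige replicate 1 (limma adjusted p = 0.186), Beige replicate 2 (0.148), Satin replicate 1 (0.13) or Satin replicate 2 (0.217). Without BL6 replicate 1 and Satin replicate 2 together, again on the spread of the Beige pair, the difference was 0.72 (limma adjusted p = 0.0117). Acly, the citrate lyase upstream of both pathways, had levels of 9.36 and 9.12 in BL6, 9.45 and 9.13 in Beige, against 9.64 and 9.60 in Satin. Satin lay above all controls by less than the spread among them, at 0.35 (SE 0.15, limma adjusted p = 0.374). Dimmer probe sets of Acly gave 0.22, 0.19, 0.1 and, below the filter, -0.5.

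The fatty acid synthase itself was not called. Fasn had levels of 9.17 and 9.37 in BL6, 9.29 and 9.21 in Beige, against 9.13 and 9.33 in Satin, with all strains overlapping. Its difference was -0.03 (SE 0.14, limma adjusted p = 0.957, 95% interval -0.35 to 0.29), an interval that lies wholly below that of Scd1. Elovl6, which lengthens palmitate to stearate, the substrate of Scd1, overlapped as well, at 0.14. A dimmer probe set of Elovl6 gave -0.16. Scd2, the close relative of Scd1, had levels of 10.52 and 9.72 in BL6, 9.64 and 9.41 in Beige, against 9.32 and 9.56 in Satin. BL6 replicate 1 stood above the other arrays, and Satin overlapped Beige. The difference was -0.38 (SE 0.22, limma adjusted p = 0.531, 95% interval -0.87 to 0.10). It turned to 0.15 on the arrays as deposited and to 0.02 with the Gapdh ratio as a covariate. Dimmer probe sets of Scd2 gave -0.31 and 0.07. Fads1, the delta-5 desaturase, lay at 6.86 and 7.11 in Satin, below 7.19 to 7.51 in the controls (-0.36, limma adjusted p = 0.519). Fads2, the delta-6 desaturase, overlapped at 0.11, and its dimmer probe set gave 0.45.

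**Figure D3:**
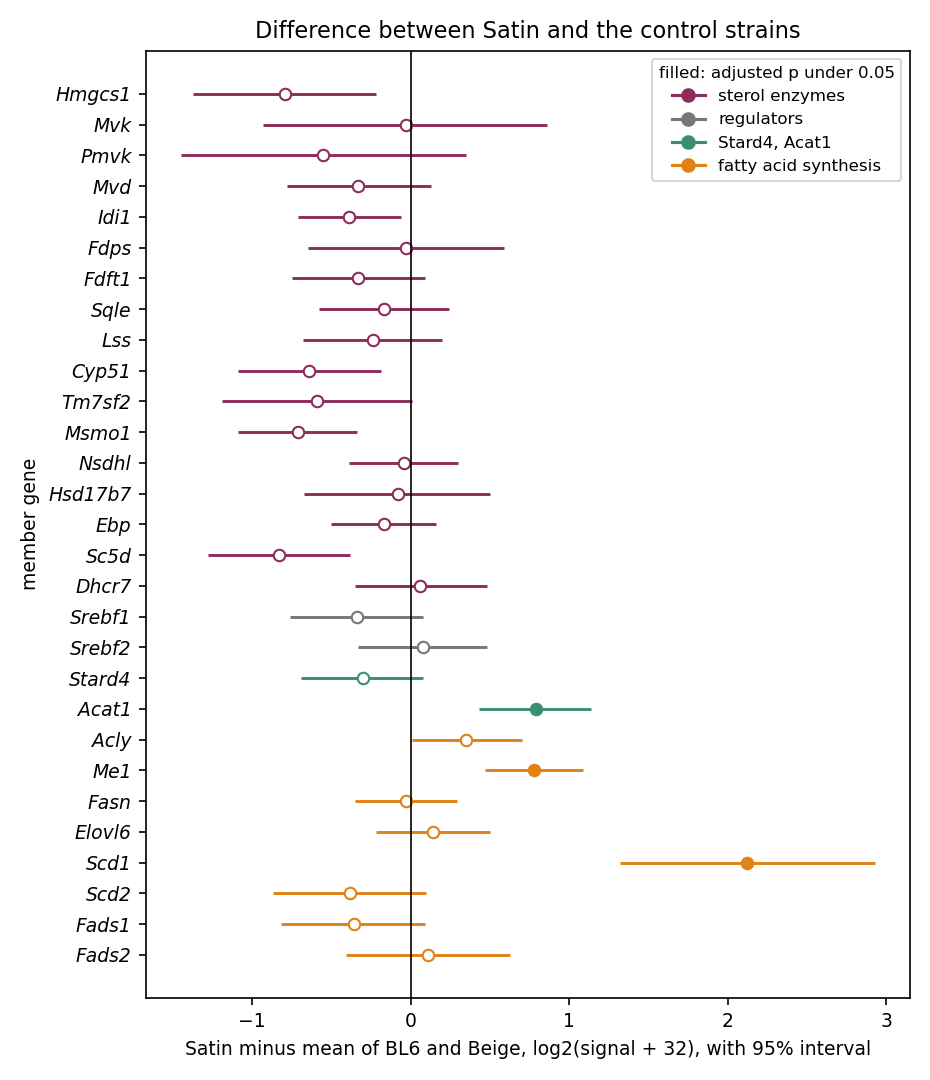
Difference of Satin from the mean of BL6 and Beige for the 29 tested members in log2(signal + 32), with 95% intervals from limma; filled points have an adjusted p under 0.05. Scd1 (2.12), Me1 (0.78) and Acat1 (0.79) are filled, and 16 of the 17 sterol enzymes lie left of 0 on this quantile normalized scale, against 6 of 17 on the arrays as deposited.

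Of the 8 tested fatty acid synthesis genes, 2 were called, both higher, against 1.44% of all genes called. Both Satin arrays lay above all controls for Acly, Me1 and Scd1, 3 of 8 (37.5%), against 10.9% of all genes tested. They lay below for Fads1, 1 of 8 (12.5%), against 12.7% of all genes. On the signals as deposited they lay above for 6 of 8 (75%), against 44.2% of all genes, and below for 0, against 2.04%. For Fasn, Elovl6, Scd2 and Fads2 the normalized Satin levels overlapped the controls. Within replicate numbers the median of this group was -0.07 for the replicate 1 arrays and 0.33 for the replicate 2 arrays. Relative to the median of all genes, the sterol median stayed between -0.37 and -0.18 and the fatty acid median between 0 and 0.25 over all processing settings fitted to this comparison.

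**Figure D4:**
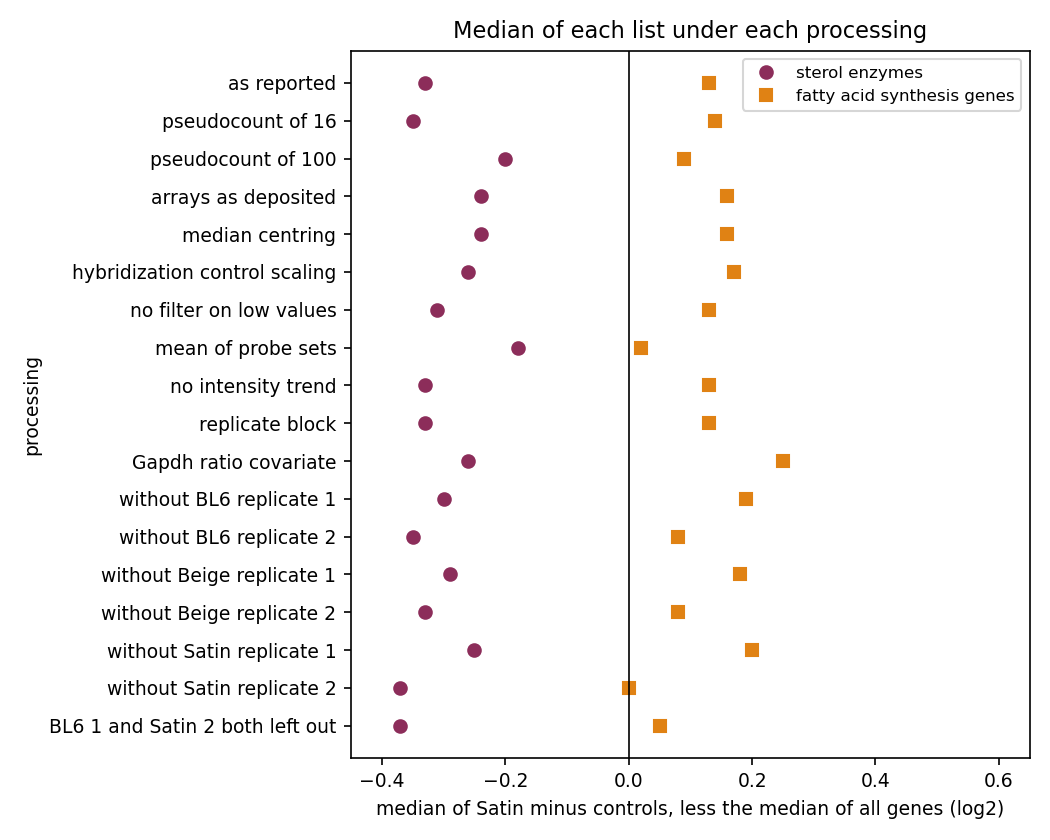
Median difference of Satin from the mean of controls for the sterol enzymes and the fatty acid synthesis genes, less the median of all genes, in log2 units, with 1 line per processing setting. The sterol medians lie between -0.37 and -0.18 and the fatty acid medians between 0 and 0.25; without subtracting the median of all genes, the sterol median is 0.19 on the arrays as deposited.

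The strains were also compared singly; the comparisons with Beige and with BL6 share the Satin arrays. Against Beige, 0 of 29 members were called in limma, and 8 passed an unadjusted p under 0.05, beside 0.894% and 10.5% of all genes. Scd1 was 1.47 higher (SE 0.41, limma adjusted p = 0.186), Me1 0.66 higher (0.126), Acat1 0.60 higher (0.232) and Hmgcs1 at -0.81 (0.357), and the median of the sterol enzymes was -0.39, with 14 of 17 below 0. In a fit of the Satin and Beige arrays alone, Hmgcs1 and Msmo1 were called lower. Calls over all genes were 136 in that fit, beside 84 in the fit of all arrays. Leaving out BL6 replicate 1 and Satin replicate 2 keeps 1 Satin array, with only the Beige pair to give the spread. Scd1 and Acat1 then lay higher in Satin, and Hmgcs1 and Msmo1 lower.

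Against BL6, 2 of 29 members were called, Scd1 and Me1, both higher, and 10 passed an unadjusted p under 0.05, beside 0.745% and 12.6% of all genes. Scd1 rose by 2.78 (SE 0.41, limma adjusted p = 0.0214, 6.85-fold) and Me1 by 0.90 (SE 0.16, adjusted p = 0.0407), while Acat1 stood at 0.98 (0.0508). The median of the sterol enzymes was -0.22, with 14 of 17 below 0 on the normalized scale. With the replicate number as a block, 1 member, Scd1, was called. The count was 0 without BL6 replicate 1, either Beige array or Satin replicate 2, and 1 without Satin replicate 1. Without BL6 replicate 2, which keeps 1 BL6 array, the count was larger than reported, and so were the calls over all genes.

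Between the control strains, Beige against BL6, 0 of 29 members were called in limma and 3 passed an unadjusted p under 0.05, beside 0% and 5.13% of all genes. Scd1 was at 1.3 (SE 0.41, limma adjusted p = 0.864, 95% interval 0.38 to 2.23), Msmo1 at 0.56 and Scd2 at -0.59. The median of the sterol enzymes was 0.04, and that of the fatty acid synthesis genes -0.01.

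The wider pathway lists held 0 called genes. Against both controls, 1.44% of all genes were called and 12.6% passed an unadjusted p under 0.05 in limma. Of SREBP processing genes, 4 of 6 were tested and 1 passed an unadjusted p under 0.05 in limma: Insig2, a retention protein of the SREBP complex, with levels of 8.61 and 8.43 in BL6, 8.59 and 8.46 in Beige, against 7.92 and 7.80 in Satin. The groups did not overlap, and the difference was -0.66 (SE 0.15, limma adjusted p = 0.0786). Mbtps1, the protease that makes the first cut in SREBP, was at 0.14. Of 9 tested genes of sterol uptake, efflux and esterification, 0 passed an unadjusted p under 0.05 in limma, with a median of 0.12; Npc2, which moves cholesterol out of lysosomes, was at 0.28 and Abcg5, a subunit of the sterol exporter, at 0.41. Lbr and Ggps1, at the edge of sterol synthesis, were at 0.25 and -0.01. Of 24 tested genes of further lipogenesis and glyceride synthesis, 4 passed an unadjusted p under 0.05 in limma, with a median of -0.08. Among them Dgat1, which makes triglyceride, was at -0.48 (limma adjusted p = 0.157) and Mogat2, which acylates monoglyceride, at -0.55 (0.291). Pnpla3 also passed, at -0.83 (limma adjusted p = 0.327). Pcx passed in the other direction, at 0.4 (limma adjusted p = 0.31).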

How the data were processed

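RNA of 6 arrays (2 per strain) was labelled as biotinylated cRNA, per the labels. The authors deposited linear intensities, 1 per probe set and array. The algorithm and scaling behind them were found in no label or header used here. After the 64 control probe sets were left out, log2(intensity + 32) was quantile normalized, and genes among the lowest 30% of probe sets were removed. Strains were compared with limma 3.58.1 under R 4.3.3 (two-sided; eBayes after lmFit, allowing an intensity trend), in 1 fit of all arrays with Benjamini-Hochberg adjustment over 9395 genes. The fit had 3 residual degrees of freedom, 9.24 after moderation. The 2 arrays per strain limit the precision.

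The reported fit had strain as its only factor and did not pair arrays by the replicate numbers in the titles. Those numbers were used only for the block setting and for comparisons within replicate numbers. Deviations of same-numbered arrays correlated across genes at 0.118, 0.272 and 0.189. These correlations come from the data, not from a stated batch. All pairs of arrays shared 35 to 88 equal values, so none was deposited under more than 1 title. Simulations changed 200 of 9395 genes in 10 runs and compared Satin against both controls. In them, 62.1% of changes of 1 and 98.4% of changes of 2 log2 units were found, with 6.06% false among calls. Their noise was normal and independent between genes and arrays, at each gene's moderated spread. It held no array-wide differences in RNA quality, admixture or signal, so these shares may be too favourable for the real arrays. Members described with all values were those called, Scd1, Scd2, Srebf1, Srebf2, the 4 with the smallest p and the 4 with the largest difference. From other pathway lists the 2 with the smallest p were named, with Pnpla3, Pcx and Thrsp added. Marker genes were named by no fixed rule. Markers of squamous forestomach (0 of 7 called) and of corpus glands (0 of 5 called, 5 above 0) are not described. Cyp51, Idi1, Acly, Fasn, Stard4 and Insig2 were given in full after their values were seen. Members and lists were chosen with earlier results of these data known. Promoter windows are from RefSeq. Other settings changed the scaling, pseudocount, filter, probe set, trend, block and arrays.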

Additional observations from a re-analysis of the deposited data

How the results depend on the processing

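Over 20 other settings, Scd1, Me1 and Acat1 kept their direction wherever they were fitted, but the number of members called against both controls (3) was unstable. It was 5 on the arrays as deposited, 7 with hybridization control scaling, 1 with median centring, 0 without the filter, 0 without the intensity trend and 0 with the Gapdh ratio as covariate, and 0 to 7 with 1 array left out. With scalings other than quantile, called members were all higher. Against Beige (0) it was 2 as deposited, 3 with hybridization control scaling, 1 with the Gapdh ratio, 4 without BL6 replicate 1 and Satin replicate 2 (chosen after seeing the data, with the spread from the Beige pair alone), 2 in the fit of 4 arrays, and 0 to 2 with 1 array left out. Against BL6 (2) it was 6 as deposited, 9 with hybridization control scaling, 1 with median centring, 1 with the replicate block, and 0 without the filter, with averaged probe sets, with no trend, with the Gapdh ratio or in the fit of 4 arrays; with 1 array left out it was 0 to 7. Between the controls it was 0 in each setting run. Calls over all genes moved with the scaling too. Against both controls they were 1531 of 9388 genes as deposited and 2271 of 9385 with hybridization control scaling, beside 135 of 9395 as reported. Against BL6 they were 1875 and 3023 under these scalings, beside 70, and against Beige 191 and 176, beside 84. The larger member counts there thus came with more calls over all genes. The same held wherever else the member count was larger than reported, fits with arrays left out included.

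The replicate block ended the calls of Acat1 against both controls and of Me1 against BL6, and changed no other member's call. The sterol median (-0.33) was -0.20 when the pseudocount was 100, -0.17 when probe sets were averaged, -0.14 with median centring, 0.19 as deposited and 0.20 with hybridization control scaling, and -0.36 to -0.25 with 1 array left out. The median of fatty acid synthesis genes (0.13) was 0.59, 0.64, 0.26 and 0.25 as deposited, with hybridization control scaling, with median centring and with the Gapdh ratio, and 0.02 to 0.19 with 1 array left out. Scaling moved the median of all genes to 0.43, 0.47 and 0.10. Scd2 turned to 0.15, 0.20 and 0.02 as deposited, with hybridization control scaling and with the Gapdh ratio; Srebf1 turned to 0.19 and 0.23 under the first 2 of these; Srebf2 turned to 0 with the Gapdh ratio and -0.03 without Beige replicate 2, and was called at 0.65 with hybridization control scaling (limma adjusted p = 0.0412). The cause was not tested. With no detection calls used here, how far dim members stand above background is unknown.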

Other observations

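Genes of fatty acid oxidation, which break fatty acids down, held 0 called genes in limma among 16 tested against both controls. Of these 16, 3 passed an unadjusted p under 0.05, beside 12.6% of all genes, and their median was -0.05. Acadm, the medium-chain acyl-CoA dehydrogenase, was at 0.62 (limma adjusted p = 0.121) and Pdk4, a kinase that shuts off pyruvate dehydrogenase, at -0.82 (0.151). Thrsp, a lipogenic protein, was at 5.05 on BL6 replicate 1 and between 7.95 and 8.45 on the other arrays, Satin included. BL6 replicate 1 is also the array with the lowest Scd1 and Adipoq.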
